A study of Mus musculus with 4 samples.

Results

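Boundaries between topologically associating domains (TADs) that kept their place from fetal to adult haematopoietic stem cells (HSCs) numbered 1414. They were drawn from 2393 distinct fetal boundaries in all, of which 2271 lay on chromosomes 1 to 19, and 2233 remained after the first and last boundary of each chromosome were left out. A fetal boundary counted as held when the nearest adult boundary on the same chromosome lay 0 or 10 kb away, which selected 63.3% of the 2233. Counted from the adult list by the same rule, 1415 of 2225 boundaries, or 63.6%, were held. The rule thus used the positions in both lists, so the values below describe the held boundaries and none of them is a test. A boundary is given by the last base of the TAD on its left, in coordinates of the mouse build mm9.

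The contacts were measured by Hi-C, which ligates and sequences DNA ends that lie near each other in fixed nuclei, in mice of the strain B6129SF1, for which the labels name no mutated allele and no agent. Cells of 2 fetal liver samples (embryonic day 14.5) and of 2 adult bone marrow samples (6 to 8 weeks) were sorted by the same surface phenotype, lineage-negative, Sca1+, cKit+ and CD135-. The labels tie each pair of samples to a single list of TADs, 1 per cell type, and how far replicate maps differ is unknown. On chromosomes 1 to 19 there were 2204 fetal and 2191 adult TADs, without a score or a contact count, so the depth behind a boundary is unknown.

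A TAD is a stretch of chromosome whose parts meet each other more often than they meet the stretches beside it. In mammals, many TAD edges carry bound CTCF, a zinc-finger protein that halts the ring-shaped cohesin complex as it extrudes a chromatin loop, and edges are known to limit which enhancers reach which promoters. Many TAD edges are known to be alike in different cell types. Fetal liver HSCs divide and expand, whereas most adult bone marrow HSCs are quiescent, and both reside at the top of the blood lineage.

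Beyond 10 kb, the fetal boundaries fell off steeply with distance from the adult list. An adult boundary lay at the identical position for 651 of them and 1 grid step of 10 kb away, to either side, for 763. Just outside the rule, 283 lay 20 kb away and 114 lay 30 kb away. Those from 20 to 100 kb away numbered 550 in all and are called displaced here. A further 269 lay more than 100 kb from any adult boundary and are called distant, among them 46 that lay more than 1000 kb away.

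**Figure D1:**
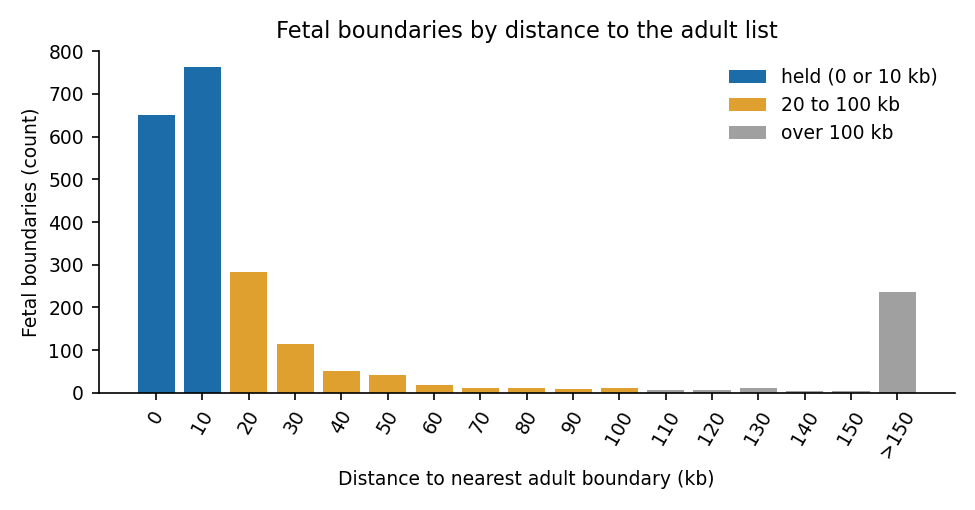
The bars give the number of fetal boundaries on chromosomes 1 to 19 (vertical axis, count) at each distance from the nearest adult boundary (horizontal axis, kb), with the last bar for all beyond 150 kb. The bars at 0 kb (651) and 10 kb (763) are the held boundaries, and the count drops to 283 at 20 kb. Every bar above 0 kb pools both directions, whereas that at 0 kb is a single position.

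Among the 1414 held boundaries, 46.0% were at the identical position (95% exact Clopper-Pearson interval 43.4 to 48.7). The adult boundary lay 10 kb higher for 400 and 10 kb lower for 363. Of the 763 that differed, 52.4% were thus higher in the adult (48.8 to 56.0), an interval that includes an even split. Adult boundaries lay higher more often than lower on 11 chromosomes and lower more often on 8. Chromosome 4, with 30 higher and 13 lower, and chromosome 7, with 16 higher and 30 lower, ran in opposite directions. These intervals treat boundaries as independent and cover counting error only.

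Steps of 10 kb at neighbouring boundaries did not run the same way more often than the opposite way. Held boundaries stood next to each other in the fetal list in 942 pairs. In 286 of the pairs both boundaries differed by 10 kb, and 135 of these, or 47.2% (41.3 to 53.2), moved in the same direction. After a boundary at the identical position the next one was also identical in 214 of 426 pairs, or 50.2% (45.4 to 55.1). After a boundary that differed by 10 kb the next was identical in 230 of 516 pairs, or 44.6% (40.2 to 49.0), so the intervals overlapped.

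The order of held boundaries along the chromosomes was described next. The next fetal boundary was also held after 942 of 1405 held boundaries, or 67.0% (64.5 to 69.5), and after 463 of 809 that were not held, or 57.2% (53.7 to 60.7), beside 63.3% held over all. Chromosomes with few held boundaries are part of both shares. Held boundaries formed 472 runs that no displaced or distant boundary of the fetal list interrupted. A run held a median of 2 boundaries, and 156 runs consisted of a single one. Runs of at least 5 numbered 95 and took in 664 held boundaries, or 47.0% of them. Runs of at least 10 numbered 15 and lay on 10 of the 19 chromosomes. The fetal list alone set the runs, so some enclosed further adult boundaries. That on chromosome 17 from 80605000 to 89275000 had 10 fetal and 14 adult boundaries. Others, such as the longest described below, had equal numbers in both lists. Between the held boundaries, the longest series of others numbered 8, found on chromosome 19 from 25725000 to 31855000 and on chromosome 11 from 82735000 to 87275000 and from 114875000 to 118875000.

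**Figure D2:**
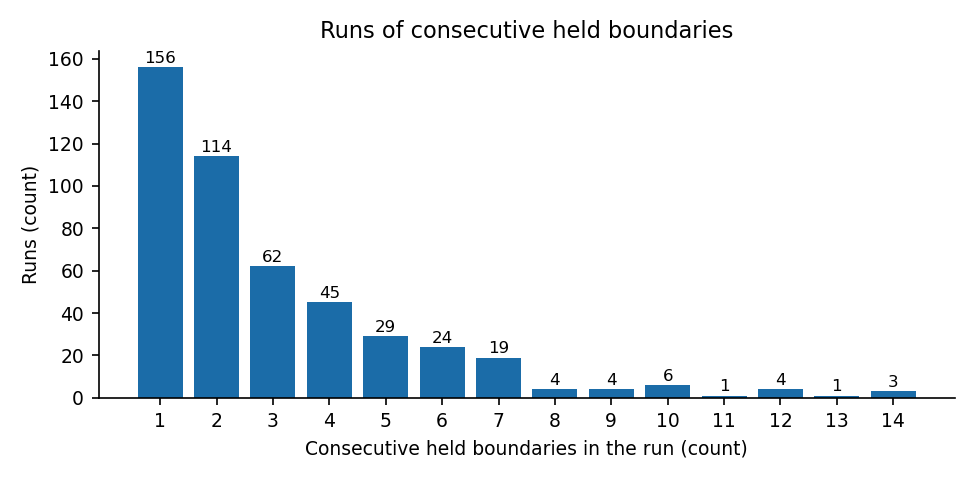
The bars give the number of runs (vertical axis, count) by the number of consecutive held boundaries in the run (horizontal axis, count). Single held boundaries form 156 runs, and 3 runs reach 14 boundaries.

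The 3 longest runs had 14 boundaries each. The one with the widest span lay on chromosome 16 from 53305000 to 70615000, or 17.31 Mb. Of its boundaries, 9 were identical in both lists, at 53305000, 55465000, 55915000, 56175000, 57635000, 58275000, 58785000, 62885000 and 64735000. The fetal boundaries at 57135000, 59375000, 66115000 and 70615000 were 10 kb lower in the adult, and the one at 65565000 was 10 kb higher. These boundaries enclosed 12 fetal TADs of 260 to 3510 kb, with a median of 615 kb, and a stretch of 4.50 Mb that held no TAD. Its adult counterparts were also 14 in number, so no further adult boundary lay among them.

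On chromosome 15 a run spanned 12.11 Mb, from 31575000 to 43685000. Here 6 boundaries were identical, at 31575000, 34435000, 36075000, 36985000, 39185000 and 43685000. Of the others, 7 were 10 kb lower in the adult, at fetal positions 32705000, 33915000, 37875000, 38615000, 40955000, 41655000 and 42775000, and that at 39995000 was 10 kb higher. The 13 fetal TADs between them measured 520 to 1640 kb, with a median of 910 kb. This run leaned to lower adult positions.

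The run on chromosome 10, from 79125000 to 88755000, covered 9.63 Mb and leaned the other way. In it 5 boundaries, at 79125000, 79735000, 80625000, 83245000 and 83965000, were 10 kb higher in the adult, and that at 87805000 was 10 kb lower. The other 8 were identical, at 82095000, 84605000, 85325000, 85985000, 86445000, 87005000, 88295000 and 88755000. Its 13 TADs measured 460 to 1470 kb, with a median of 660 kb. On both chromosomes the adult list had 14 boundaries in the run, as the fetal list had.

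Without any step, the longest run of identical positions had 7 boundaries and lay on chromosome 1. The boundaries were at 23695000, 24275000, 24855000, 30735000, 31265000, 33715000 and 34035000. The interval from 24855000 to 30735000 held no TAD in either list. The other 5 intervals were TADs of 580, 580, 530, 2450 and 320 kb in both lists.

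Held boundaries were then examined as the ends of TADs. Of 2166 fetal TADs whose ends could both count, 926, or 42.8% (40.7 to 44.9), had both ends held. A further 908 had 1 held end and 332 had none. Since 63.3% of all fetal boundaries were held, many TADs with both ends held follow from that share. TADs with both ends held had a median length of 795 kb (quartiles 550 and 1210), those with 1 held end 795 kb (520 and 1260), and those with none 710 kb (457.5 and 1182.5). The TADs with both ends held summed to 917.4 Mb, or 42.1% of the length of fetal TADs on these chromosomes.

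Of the 926 TADs, 852, or 92.0% (90.1 to 93.7), were a single TAD in the adult list as well. The other 74 had at least 1 adult boundary inside, and 68 of these had exactly 1. The divided TADs were longer, with a median of 1385 kb (order-statistic interval 1210 to 1570), against 760 kb (720 to 790) for the undivided. A longer TAD has more room for a boundary inside, so this difference arose in part by construction. Among the 852 the length was the same in 314, the adult TAD was longer in 266 and shorter in 272. Of the 314, both coordinates were identical in 195, while in the other 119 the whole TAD lay 10 kb to one side.

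Both ends were held at identical coordinates in 210 fetal TADs, with a median length of 760 kb. The longest lay on chromosome 8 from 4795001 to 9205000, or 4410 kb, and was a single TAD in both lists. Next was a TAD of 3820 kb on chromosome 7 from 100275001 to 104095000, inside which the adult list had 3 further boundaries. The third, of 3500 kb, spanned 54555001 to 58055000 on chromosome 5 and was again 1 TAD in both lists. The shortest were TADs of 200 kb on chromosome 8 (28415001 to 28615000), 230 kb on chromosome 17 (89045001 to 89275000) and 260 kb on chromosome 16 (55915001 to 56175000). Each of these 3 was present unchanged in the adult list, and the last belongs to the run on chromosome 16 described above.

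Neighbouring held boundaries delimited 1395 intervals with a median length of 1.09 Mb (quartiles 0.645 and 2.01). In 865 intervals, or 62.0% (59.4 to 64.6), neither list had a further boundary, and 12 of these held no TAD in either list. Further boundaries were present in the fetal list alone in 79 intervals and in the adult list alone in 77. Both lists had some in 374 intervals, in equal number in 232 of them, most often 1 each (155). The fetal list had more in 151 intervals and the adult list in 147.

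**Figure D3:**
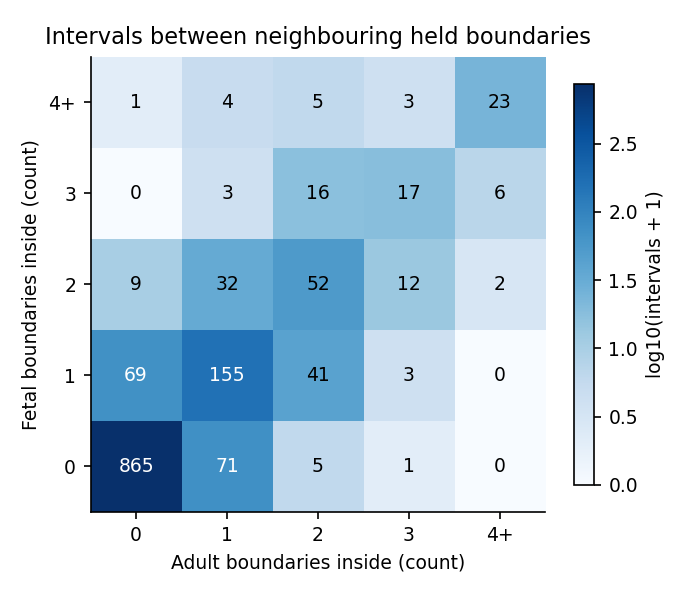
Each cell gives the number of intervals between neighbouring held boundaries, by the number of further adult boundaries (horizontal axis, count) and further fetal boundaries inside (vertical axis, count), with colour on a log10(intervals + 1) scale. The intervals gather on the diagonal, with 865 that hold none and 155 that hold 1 in each list. The last row and column pool 4 or more boundaries, so the cell they share (23) also includes unequal numbers.

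The longest such interval lay on chromosome 11 from 31545000 to 46555000, or 15.01 Mb. Inside it the fetal list had 6 boundaries, at 32225000, 34635000, 35625000, 43255000, 44385000 and 45745000, and the adult list had 10. Of the fetal ones, those at 34635000 and 44385000 were 20 kb and that at 43255000 was 50 kb from an adult boundary. The other 3 lay 220 to 410 kb away. Fetal TADs covered 7.38 Mb of the interval and adult TADs 7.65 Mb, and the rest was stretches without a TAD.

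Most boundaries, held or not, separated TADs that adjoin. In both lists at once this was so for 1342 of 1414 held boundaries, or 94.9% (93.6 to 96.0). It was so for 514 of 550 displaced boundaries, or 93.5% (91.1 to 95.4), and for 215 of 269 distant ones, or 79.9% (74.6 to 84.5). For a distant boundary the nearest adult boundary is a different one, so the fetal list was also read alone. There 96.5% of held (95.4 to 97.4), 95.8% of displaced (93.8 to 97.3) and 91.4% of distant boundaries (87.4 to 94.5) separated adjoining TADs. Over all classes, 2137 of the 2233 fetal boundaries did so. Of these 2137, 63.8% (61.7 to 65.9) were held, close to the 63.3% of all 2233. A boundary at the edge of a stretch without a TAD on the same side in both lists made up 41 held boundaries. At 18 of these edges the position was identical, at 13 the adult TAD reached 10 kb further into the stretch, and at 10 it ended 10 kb earlier.

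Stretches that lacked a TAD in the fetal list, the adult list or both lay within 1 Mb of 127 held boundaries, or 8.98% (7.54 to 10.6). The share was 10.7% (8.27 to 13.6) for displaced boundaries and 22.3% (17.5 to 27.8) for distant ones. Inside such a stretch or at its edge lay 68 held, 26 displaced and 46 distant boundaries, or 4.81, 4.73 and 17.1% of each class. A fetal boundary more than 10 kb inside a stretch without an adult TAD cannot be held, so the difference arose in part by construction. Among the boundaries more than 1 Mb from such stretches, 1287 of 1987, or 64.8% (62.6 to 66.9), were held. This was close to the 63.3% of all 2233.

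The lengths of the TADs beside held boundaries were set beside those of the other classes. The median length of fetal TADs beside them was 800 kb (order-statistic interval 770 to 820), against 790 kb (740 to 840) beside displaced and 710 kb (650 to 790) beside distant boundaries. The shorter of the TADs at a boundary had a lower quartile of 460 kb at held, 390 kb at displaced and 270 kb at distant boundaries, while the medians were 580, 560 and 510 kb. A TAD under 300 kb adjoined 148 held boundaries, or 10.5% (8.92 to 12.2), beside 299 of all 2233, or 13.4%. It adjoined 14% of displaced (11.2 to 17.2) and 27.5% of distant boundaries (22.3 to 33.3), and the intervals of held and displaced boundaries overlapped. These limits were chosen after the values were seen. In the adult list the shares under 300 kb were 9.33% of held (7.86 to 10.96), 13.4% of displaced (10.6 to 16.5) and 26.2% of distant boundaries (20.9 to 32.0). Without chromosomes 11, 14 and 19 the fetal shares under 300 kb were 10.5%, 15.2% and 28.6%.

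Grouped by the shorter neighbour, boundaries beside a fetal TAD under 200 kb were held in 48 of 123 cases, or 39.0% (30.4 to 48.2). The share was 56.8% (49.2 to 64.2) from 200 to 300 kb and 54.1% (46.8 to 61.3) from 300 to 400 kb. It was highest from 500 to 600 kb, with 294 of 416 held, or 70.7% (66.0 to 75.01), and was 59.0% (47.7 to 69.7) at 1500 kb and above. Counted in the adult list it went from 40% (30.8 to 49.8) under 200 kb to 70.4% (64.2 to 76.0) from 800 to 1000 kb. There it was 69.6% (62.6 to 76.1) from 1000 to 1500 kb and 66.7% (54.8 to 77.1) at 1500 kb and above. The lengths come from the same coordinates as the rule, and with 1 list per cell type these differences could not be set against replicate maps.

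**Figure D4:**
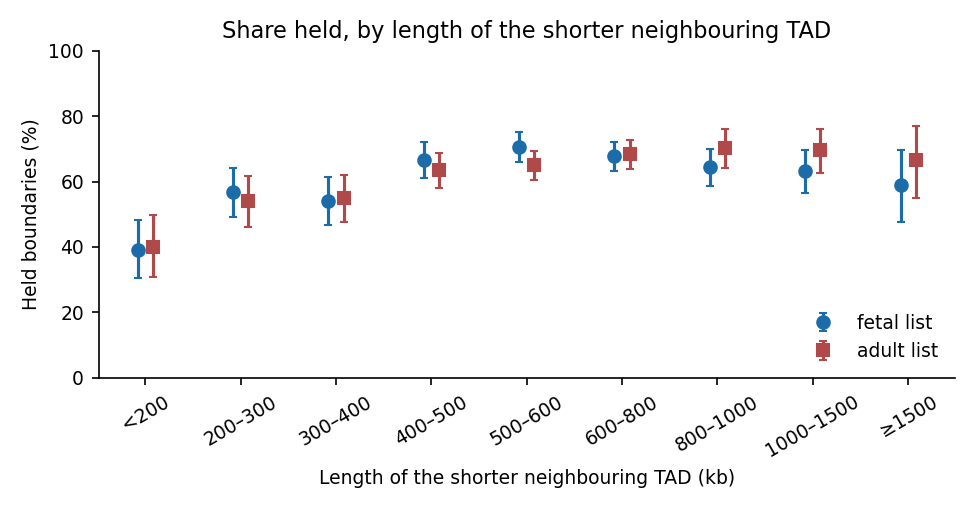
Points give the percentage of boundaries held (vertical axis) by the length of the shorter neighbouring TAD (horizontal axis, kb), for fetal boundaries (circles) and adult boundaries (squares), and bars are 95% exact intervals. Both series are lowest under 200 kb, at 39.0% and 40%.

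The TADs on either side of a held boundary were compared in length. Where TADs lay on both sides in the fetal list, the longer was at least 2 times the shorter at 600 of 1364 held boundaries, or 44.0% (41.3 to 46.7), beside 45.5% (43.4 to 47.7) of all fetal boundaries. The left TAD was the longer at 680 held boundaries and the right at 673, and both had the same length at 11.

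Across chromosomes, the share of held boundaries had a median of 64.6% and lay between 60 and 72% on 16 of the 19. It was highest on chromosomes 16 and 17, each with 66 of 92, or 71.7% (61.4 to 80.6). It was lowest on chromosome 11, with 32 of 97, or 33.0% (23.8 to 43.3), and on chromosome 19, with 18 of 48, or 37.5% (24.0 to 52.6). Chromosome 14 followed with 54 of 104, or 51.9% (41.9 to 61.8). Without chromosomes 11 and 19 the share over the rest was 65.3%.

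**Figure D5:**
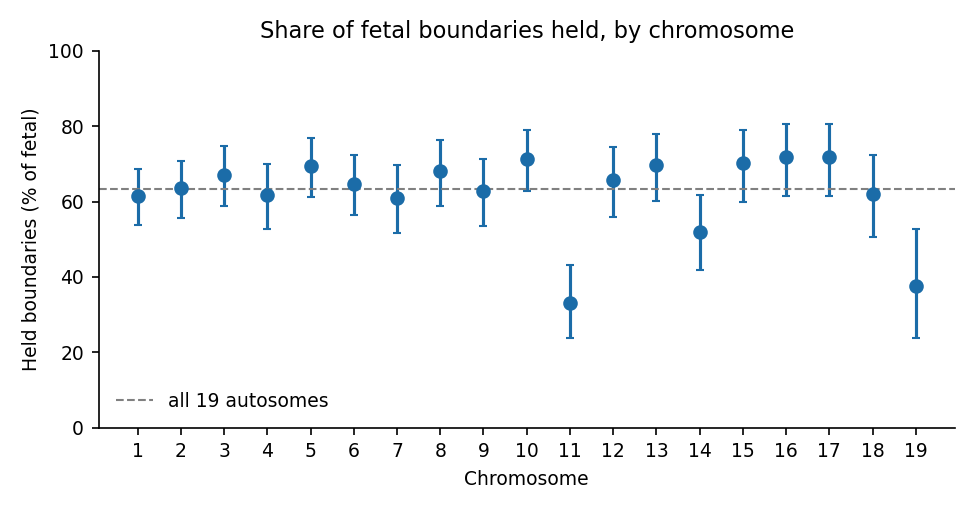
Points give the percentage of fetal boundaries held (vertical axis) on each chromosome (horizontal axis), bars are 95% exact intervals, and the dashed line marks all 19 autosomes together (63.3%). Chromosomes 11 (33.0%), 19 (37.5%) and 14 (51.9%) lie lowest.

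Held boundaries were also sparser per length on these chromosomes. There were 2.69 per 10 Mb on chromosome 11, 3.09 on chromosome 19 and 4.65 on chromosome 14, against a median of 6.00 and a highest value of 7.24 on chromosome 10. All fetal boundaries, held or not, numbered 8.16 per 10 Mb on chromosome 11 and 8.23 on chromosomes 7 and 19, against 10.2 on chromosome 10. Fetal TADs had medians of 990 kb on chromosome 11 and 1080 kb on chromosome 19, against adult medians of 835 and 840 kb. Chromosome 14 did not share these values, with 8.96 boundaries per 10 Mb and a median TAD of 780 kb in both lists.

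On chromosome 11 no run exceeded 3 held boundaries, while the longest run of the other chromosomes had 6 to 14. Its 32 held boundaries were spread along the chromosome from 4935000 to 120255000. Of them, 11 were at the identical position, at 9145000, 21475000, 29025000, 31545000, 53715000, 87745000, 90555000, 100175000, 110205000, 111395000 and 114535000. A further 12 lay 10 kb higher and 9 lay 10 kb lower in the adult. Its other boundaries were 44 displaced and 21 distant ones.

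Chromosome 19 differed in this respect, since 9 of its 18 held boundaries formed 1 run from 33455000 to 41145000. These lay at 33455000, 34155000, 35055000, 36145000, 36895000, 37475000, 39045000, 40305000 and 41145000. Only those at 36895000 and 41145000 were 10 kb higher in the adult, and the other 7 were identical. The adult list had 10 boundaries in this run, 1 more than the fetal list. Outside it, 9 held boundaries were spread from 12085000 to 56395000.

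Within held boundaries the share at the identical position ranged from 34.4% on chromosome 11 (18.6 to 53.2) to 56.4% on chromosome 13 (44.7 to 67.6), with a median of 46.8% over chromosomes. The interval of each chromosome named here included that median. By position along the chromosome, measured from its first to its last fetal boundary and divided into 5 equal parts, the share held was 63.3, 60.7, 62.1, 65.5 and 64.9%. The interval of each part included the 63.3% found over all of them.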

How the data were processed

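The authors deposited 1 TAD list per cell type, with a chromosome, a start and an end in base pairs and no score. Per the submitters' processing notes, the build was mm9, and HiC-Pro and GSNAP are named without a role. Not given in the sources used here are the TAD caller, its settings, the map resolution and any pooling of samples, each of which could move a boundary. Apart from 10 coordinates per list, positions lay 10 kb or a multiple of it apart, so a held boundary is exact to 1 grid step at best.

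Distinct starts and ends were taken as boundaries with Python 3.11.15, numpy 2.4.6 and pandas 2.3.3. Shares carry 95% exact Clopper-Pearson intervals (scipy 1.17.1), and medians carry order-statistic intervals. The functions were tested on simulated data. With 1 list per cell type no p-value was computed.

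The members, the comparisons and the rule for named regions were chosen with earlier results of these data known. The rule named the 3 longest and 3 shortest fetal TADs with both ends identical, the 3 longest runs, the longest interval and the 2 chromosomes highest and lowest. Other regions were named after their values were seen, namely chromosomes 4, 7, 10, 13 and 14 and the named runs on chromosomes 17 and 19. So were the longest run of identical positions and the longest series of boundaries that were not held. The gene and sequence tables at hand were of GRCm38, another build, so genes, CTCF motifs, base composition and sequences at the boundaries were not analysed here.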

Additional observations from a re-analysis of the deposited data

How the results depend on the processing

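The share of fetal boundaries held followed the distance allowed, at 29.2% for identical positions, 76.0% within 20 kb and 83.4% within 40 kb, by construction. It was 65.3% without chromosomes 11 and 19 and 66.0% without chromosomes 11, 14 and 19, the latter chosen after the data were seen. The same distances gave 9.70, 59.7 and 71.1% of fetal TADs with both ends held. Runs of at least 5 held boundaries numbered 6 at identical positions, 136 within 20 kb and 144 within 40 kb. The median TAD length beside held boundaries was 580 kb for the shorter and 1120 kb for the longer neighbour. Of 29 alternative values of these results, 17 stayed inside the 95% interval or, for run counts, within 1.5 times, the 136 runs within 20 kb among them. The others that stayed included chromosome X, the first and last boundaries, the adult list, mutually nearest pairs, adjoining TADs and TADs of at least 200 kb. No TAD was shorter than 110 kb, so mutually nearest pairs and the adult list counted nearly the same pairs again. For the share held, these alternatives thus stayed largely by construction. Chromosome 11 had the lowest share at all 4 distances, and chromosome 19 was second lowest except within 40 kb, where chromosome 14 was lower (69.2% against 77.1%). Which chromosome was highest changed with the distance. No paired analysis was possible because each cell type had a single list, and for that reason no replicate could be left out. The alternatives on gene starts, motifs and base composition were not run, for want of a table of the same build. The unknown depth limits every count.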
